A study of Homo sapiens with 4 samples.

Results

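The transcripts of 38 genes of the hypoxia response and of glycolysis were followed in HK1 and HK1EBV, lines of nasopharyngeal carcinoma cells, with and without caffeic acid phenethyl ester (CAPE). The genes were listed by name: subunits and regulators of the hypoxia-inducible factors (HIF), known HIF targets, glucose transporters and glycolytic enzymes. They were chosen with earlier results of these data known. Their counts beside those of all genes are thus descriptions and no independent support. Of the 38, 36 had a value, out of 18323 genes with a value in all. CA9, a carbonic anhydrase, had no probe set named for it in the platform annotation used and was not analysed here. PGAM1, a phosphoglycerate mutase, lay only on probe sets shared with PGAM4 and was not analysed here either. Each of the 36 genes was read at its brightest probe set, and all 36 passed a filter on dim genes that left 15194 genes for testing.

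HIF is a pair of an alpha subunit (HIF1A or EPAS1) and a constant partner, ARNT. In oxygenated cells the prolyl hydroxylases EGLN1 and EGLN3 mark the alpha subunit, VHL binds the marked form, and the protein is destroyed, so that HIF activity is set largely by protein stability and not by the level of HIF1A RNA. When the hydroxylases are inactive, for want of oxygen, iron or 2-oxoglutarate, HIF enters the nucleus and raises genes for glucose uptake, glycolysis, lactate production, angiogenesis and the removal of mitochondria. Carcinoma cells often run glycolysis at a high rate even in oxygen.

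The 4 groups were HK1 cells in 0.1% dimethyl sulfoxide (DMSO), HK1 cells in 110 µM CAPE, HK1EBV cells in 0.1% DMSO and HK1EBV cells in 110 µM CAPE, each for 24 h and each measured on 1 array. CAPE is a catechol-bearing phenolic ester found in propolis. HK1EBV is taken from its name to be HK1 carrying Epstein-Barr virus. The labels call both lines derived from nasopharyngeal carcinoma, say nothing more of the virus or of clones, and name no oxygen level of the culture. All were grown in a high-glucose medium with serum. The deposited values are taken as log2 because RMA, the method the submitters name, gives that scale, and the base is not given in the sources used here. Array medians ran from 2.23 to 2.27, and the number of arrays limits the precision of every value. Of 7 epithelial markers measured, 6 lay above the array medians on every array. The 6 fibroblast markers lay between 0.43 and 3.64, the 4 leukocyte markers between 0.46 and 2.26 and the 4 endothelial markers between 0.68 and 1.56. In such bulk RNA, fewer cells of a kind and less RNA per cell cannot be told apart. No group had a replicate, and no label gives each array a culture of its own, so the tests below measure no spread between cultures. Their error rests on how far the CAPE change of a gene differs from line to line on these arrays.

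HIF binds a core of 5 bases, ACGTG or GCGTG, in the DNA of its targets. The 250 bases before each transcription start in RefSeq (GRCh38.p14) were searched for both cores on both strands, and CACGTG, which holds ACGTG on each strand, was counted as well. For 30 of the 36 genes a start was listed, 44 starts in all. Of these, 21 (47.7%) held ACGTG and 22 of 44 GCGTG, and 34 (77.3%) held at least 1 of these cores. The shares over all 35116 starts in the table were 18.5%, 32.2% and 43.2%. Over the starts of the genes tested they were 21.2%, 41.0% and 52.4%. The core holds a CpG, and the starts of these 30 genes were richer in G and C, with a median of 71.0% against 63.6% for the genes tested. The CACGTG form stood at 7 of the 44 starts (15.9%), at 6.34% of all starts and at 7.9% of the starts of the genes tested. The 14 starts of genes at least 2-fold higher with CAPE in HK1 held a core in 10 cases (71.4%), and the 30 starts of the other genes in 24 cases (80.0%). Those 14 starts belonged to 9 genes, and NDRG1 and BNIP3L, also at least 2-fold higher in HK1, had no listed start. By gene, 26 of the 30 held at least 1 core at a listed start, as did 7270 of the 11880 genes tested that had one. The list holds genes picked as known HIF targets, so a higher share of HIF cores may be built into that choice. It is no result about CAPE and was not tested. A match describes letters only and is no measured binding site.

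Stretches around these cores are shown for 5 genes picked as examples, all higher with CAPE in both lines. Each is taken from a start that held ACGTG, so every stretch shows that core by choice. The only listed start of EGLN3 and that of SLC2A1, both at least 2-fold higher in HK1, held neither core. BNIP3 and ENO2 had the largest CAPE differences in HK1 among genes with a listed start, PGK1 and LDHA had smaller ones, and ANKRD37 had its larger one in HK1EBV. Each is written 5′ to 3′ along the gene, with every ACGTG or GCGTG, on either strand, in capitals.
BNIP3 (chr10:131982011-131982078, minus strand, bases 155 to 88 before the start): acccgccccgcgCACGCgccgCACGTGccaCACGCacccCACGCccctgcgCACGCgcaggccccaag
ENO2 (chr12:6914450-6914478, plus strand, bases 130 to 102 before the start): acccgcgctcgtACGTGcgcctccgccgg
PGK1 (chrX:78104025-78104081, plus strand, bases 223 to 167 before the start): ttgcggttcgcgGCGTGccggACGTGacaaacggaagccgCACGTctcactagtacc
LDHA (chr11:18394366-18394506, plus strand, bases 197 to 57 before the start): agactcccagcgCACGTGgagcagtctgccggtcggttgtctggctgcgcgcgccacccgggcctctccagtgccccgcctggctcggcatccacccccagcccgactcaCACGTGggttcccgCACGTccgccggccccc
ANKRD37 (chr4:185396667-185396714, plus strand, bases 174 to 127 before the start): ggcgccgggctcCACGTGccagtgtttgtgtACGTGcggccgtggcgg

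Hypoxia targets and glycolysis genes were higher with CAPE in HK1 and, by less, in HK1EBV. In HK1, 33 of the 36 were higher, with a median change of 0.60 log2 units (1.52-fold) against 0.02 over all genes tested. In HK1EBV, 26 of the 36 were higher, with a median of 0.27 (1.21-fold) against a median close to 0 over all genes. Of the 15194 genes tested, 8067 were higher in HK1 and 7316 in HK1EBV. In both lines 25 of 36 were higher, where 32.1% of all genes tested were, and 2 of 36, HIF1A and PFKFB3, were lower in both, where 29.5% of all genes were. The signs were opposite for 9 of 36, where they were for 35.7% of all genes. The changes ran from -0.27 to 3.36 in HK1 and from -0.34 to 1.25 in HK1EBV.

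**Figure D1:**
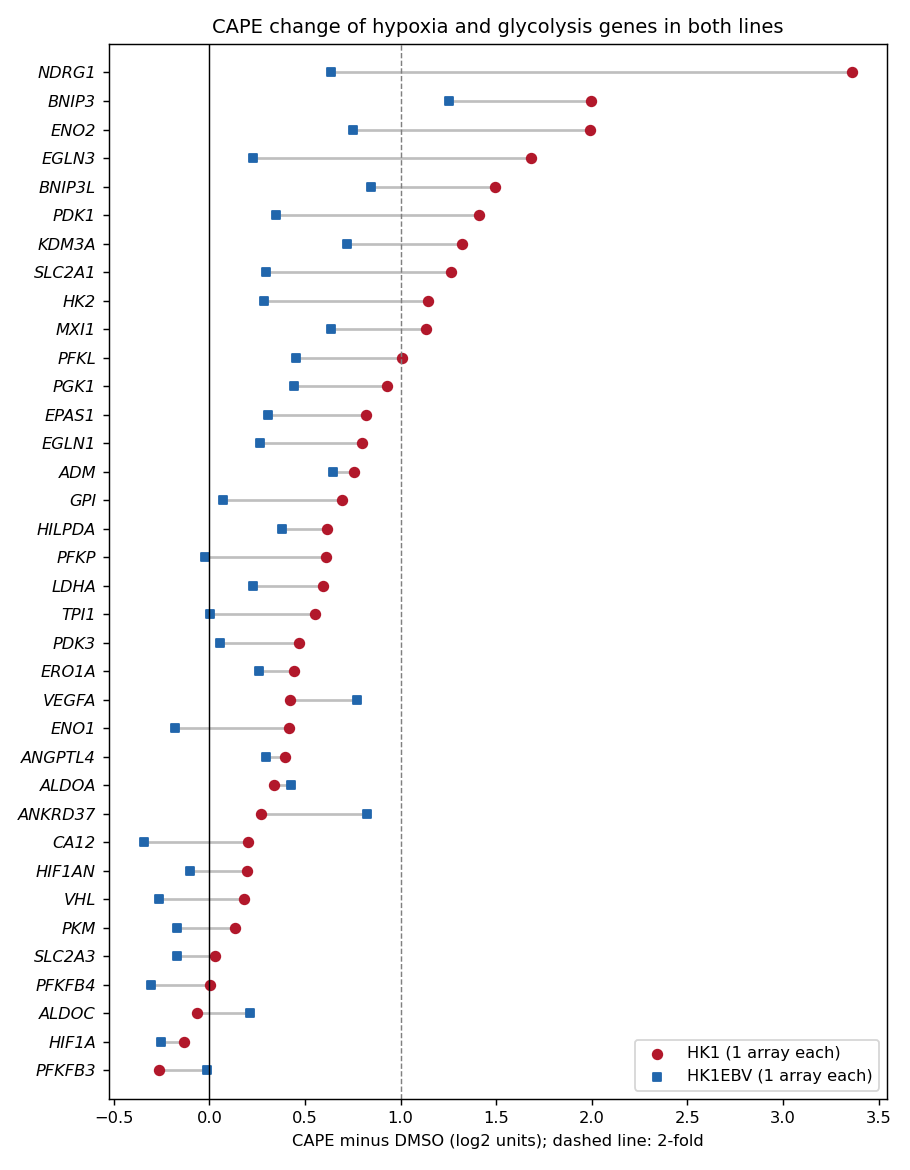
CAPE minus DMSO in log2 units for the 36 genes with a value, ordered by the change in HK1, with a circle for HK1, a square for HK1EBV and a grey bar joining them (1 array per group, so no error bars). The circle lies to the right of the square for 31 genes, and 11 circles but 1 square lie at or beyond the dashed 2-fold line.

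Past 2-fold, the contrast between the lines was plain. In HK1, 11 of the 36 genes were at least 2-fold higher, where 0.671% of all genes tested were: NDRG1, BNIP3, ENO2, EGLN3, BNIP3L, PDK1, KDM3A, SLC2A1, HK2, MXI1 and PFKL. In HK1EBV, 1 of the 36, BNIP3, reached 2-fold, where 0.691% of all genes did. None (0) of the 36 was 2-fold lower in either line. These counts carry no test, since each rests on 1 array a group. At 1.5-fold the counts were 19 in HK1, where 3.38% of all genes passed, and 9 in HK1EBV, where 3.9% did.

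The CAPE change was higher in HK1 than in HK1EBV for 31 of the 36 genes (86.1%), where that was so for 52.8% of all genes tested. The median of the difference, HK1 minus HK1EBV, was 0.49, against 0.02 over all genes. Lists outside these genes varied. The CAPE change was higher in HK1 for 6 of 7 epithelial markers (median difference 0.53) and for 7 of 8 glycogen genes (0.26). It was so for 17 of 26 further HIF targets (0.29) and for 11 of 19 genes of pyruvate dehydrogenase and the citric acid cycle (0.05). Of those 26 HIF targets, 5 were at least 2-fold higher in HK1 and 5 in HK1EBV, where 0.671% and 0.691% of all genes were. Whether the order differs between the hypoxia genes and such lists was not tested. For 4 genes, NDRG1, EGLN3, ENO2 and PDK1, the change was larger in HK1 by at least 2-fold, where that held for 0.428% of all genes. The 5 genes with the higher value in HK1EBV were VEGFA, ANKRD37, ALDOA, ALDOC and PFKFB3. Across the 36 genes, which share the same 4 arrays and are not independent replicates, the changes in the lines correlated at Pearson's r = 0.631 and Spearman's rho = 0.673, where the values over all genes tested were 0.549 and 0.442. No residual degree of freedom is left to test how far the lines differ.

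**Figure D2:**
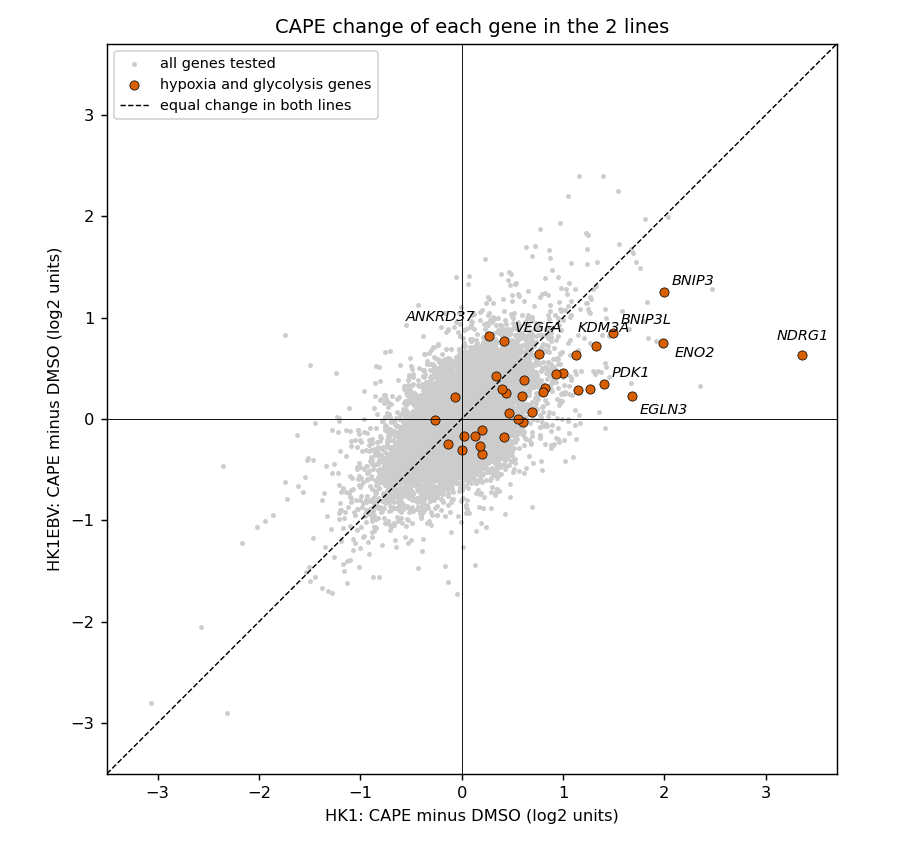
CAPE minus DMSO in log2 units in HK1 (horizontal) against HK1EBV (vertical), with grey points for the 15194 genes tested, orange points for the 36 hypoxia and glycolysis genes, and a dashed line of equal change. Most orange points lie to the right of 0 and below the dashed line, and NDRG1, at 3.36 in HK1 and 0.63 in HK1EBV, lies farthest right of all genes tested.

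With the lines as the replicates of the CAPE effect, 0 of the 36 genes passed (limma with Benjamini-Hochberg adjustment over 15194 genes, adjusted p under 0.05), where 0.00658% of all genes, 1 gene, passed. The lowest adjusted p among them was 0.0672, for BNIP3. At an unadjusted p under 0.05, 22 of the 36 were higher, against 10.2% of all genes, and 0 were lower. This limma test depended on 57 genes whose residual was exactly 0. Without them 16 of the 36 passed, all higher, against 4.07% of genes higher and past the threshold. Of the settings tried, that was the one with the most of the 36 passing. Without the filter on dim genes, and without line as a block, 0 of the 36 passed. The lowest limma adjusted p among them was then 0.193 and 0.437. The residual of a gene here is how far its CAPE change differs from line to line, so a gene with unequal changes, such as NDRG1, has a wide error for that reason.

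HIF subunits and regulators did not share one direction. EPAS1, the HIF-2 alpha subunit, stood at 5.43 with DMSO and 6.25 with CAPE in HK1, and at 5.93 and 6.24 in HK1EBV. Its lowest value was thus that of HK1 in DMSO, and the CAPE values of the lines were within 0.01 of each other. HIF1A stood at 6.67 and 6.54 in HK1 and at 6.52 and 6.27 in HK1EBV, lower with CAPE by 0.13 and 0.25. HIF1A RNA was thus not among the higher genes in either line.

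The prolyl hydroxylase gene EGLN3, itself a HIF target, stood at 2.34 with DMSO and 4.03 with CAPE in HK1, but at 2.02 and 2.25 in HK1EBV. Only the HK1 CAPE array was clearly above the array medians, and the change was 1.68 (3.21-fold) in HK1 and 0.23 (1.17-fold) in HK1EBV. By the difference between these changes EGLN3 ranked 9 among the 15194 genes. EGLN1, the main HIF hydroxylase, stood at 4.66 and 5.46 in HK1 and at 4.65 and 4.91 in HK1EBV. The lines were closer in DMSO than in CAPE, as for EGLN3.

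HIF1AN, the asparagine hydroxylase that blocks HIF activity, stood at 5.59 and 5.78 in HK1 and 5.73 and 5.63 in HK1EBV. VHL, the substrate receptor of the ligase that destroys HIF, stood at 4.08 and 4.26 in HK1 and 4.34 and 4.08 in HK1EBV. For both genes the CAPE change had opposite signs in the lines. Without the genes of zero residual EPAS1 and EGLN3 passed (limma adjusted p = 0.0441 for each), whereas EGLN1 did not (0.0587).

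NDRG1, a stress-responsive gene much used as a marker of HIF activity, had the largest change in HK1. Its values were 5.94 with DMSO and 9.29 with CAPE in HK1, and 7.82 and 8.46 in HK1EBV. The 4 arrays were thus all apart, with HK1 in DMSO far below the others and HK1 in CAPE the highest. The change of 3.36 in HK1 (10.2-fold) was the highest of all 15194 genes, and that of 0.63 in HK1EBV (1.55-fold) ranked 471. The difference between them, 2.72, ranked 1. The mean over the lines was 2.0 ± 0.62 (moderated SE of limma, n = 2 lines), with a limma adjusted p = 0.187, or 0.0189 without the genes of zero residual.

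The mitophagy receptors BNIP3 and BNIP3L, proteins of the outer mitochondrial membrane, were higher in both lines. BNIP3 stood at 7.25 with DMSO and 9.25 with CAPE in HK1 and at 7.51 and 8.76 in HK1EBV, and BNIP3L at 6.67 and 8.17 and at 6.84 and 7.69. For both genes each CAPE array lay above each DMSO array. Over the lines BNIP3 was higher by 1.62 ± 0.20 and BNIP3L by 1.17 ± 0.18 (moderated SE, n = 2 lines). Their limma adjusted p were 0.0672 and 0.0838, or 0.00064 and 0.00235 without the genes of zero residual.

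KDM3A, a histone H3 lysine demethylase, stood at 4.78 and 6.11 in HK1 and at 4.79 and 5.51 in HK1EBV. MXI1, an antagonist of MYC, stood at 4.07 and 5.20 in HK1 and at 4.31 and 4.94 in HK1EBV. Again each CAPE array lay above each DMSO array for these genes. HILPDA, a protein of lipid droplets, was higher by 0.62 and 0.38. ERO1A, the oxidase that supports disulfide formation in the endoplasmic reticulum, was higher by 0.44 and 0.26.

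ANKRD37, an ankyrin repeat gene, departed from this order. It stood at 2.73 and 3.0 in HK1 and at 2.55 and 3.38 in HK1EBV, so that the highest value was that of HK1EBV in CAPE. Its change of 0.82 in HK1EBV (1.77-fold) exceeded that of 0.27 in HK1 (1.20-fold). By the difference HK1 minus HK1EBV, at -0.55, it ranked 14694 of 15194. It did not pass in the planned limma fit (adjusted p = 0.179) or without the genes of zero residual (0.0551).

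**Figure D3:**
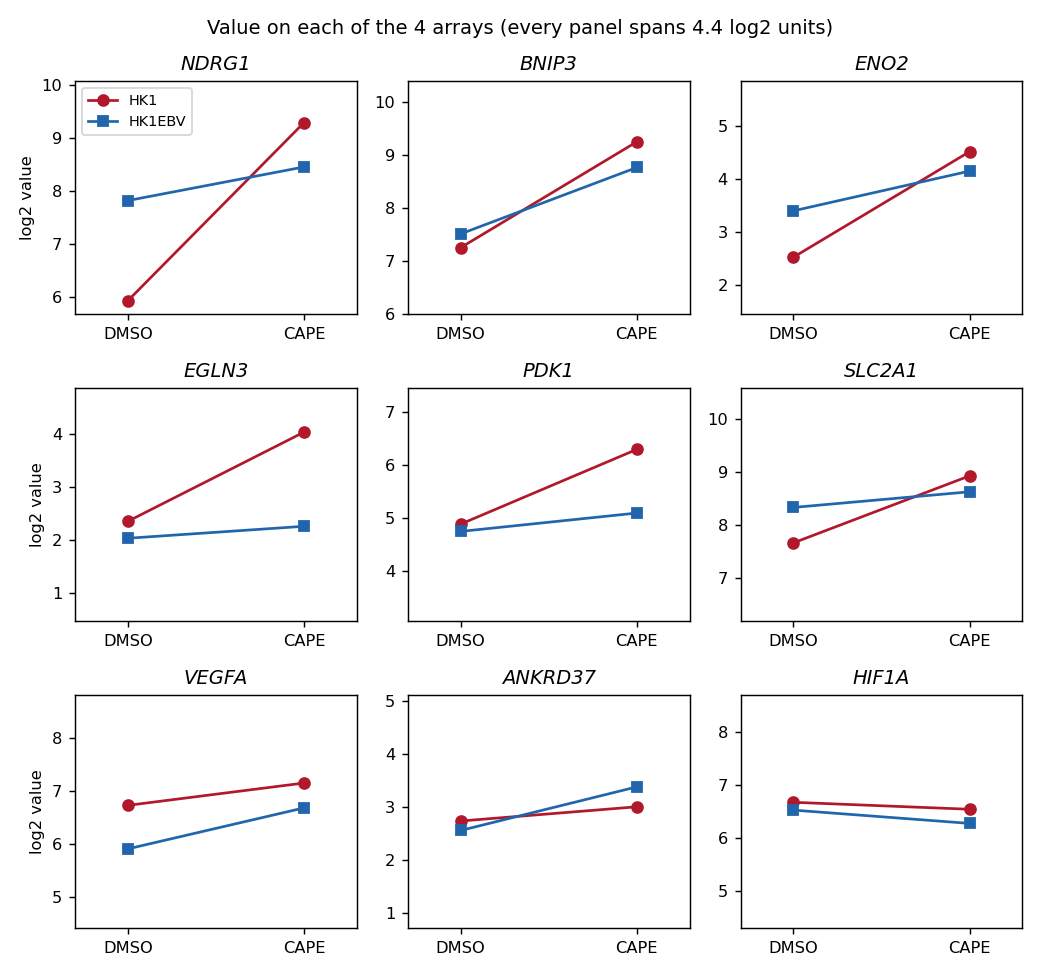
The log2 value on each of the 4 arrays for 9 genes, with DMSO left and CAPE right, a red line with circles for HK1 and a blue line with squares for HK1EBV (each point is 1 array, each panel spans the same number of log2 units). The red line is steeper for NDRG1, BNIP3, ENO2, EGLN3, PDK1 and SLC2A1, the blue line for VEGFA and ANKRD37, and HIF1A slopes down in both.

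The 3 secreted factors were higher in both lines, and for these the difference was not always the larger in HK1. VEGFA, the angiogenic growth factor, stood at 6.73 with DMSO and 7.15 with CAPE in HK1 and at 5.91 and 6.68 in HK1EBV. Its change was 0.42 in HK1 and 0.77 in HK1EBV, and HK1EBV in CAPE only approached the level of HK1 in DMSO. Over the lines the mean of these was 0.60 ± 0.14 (moderated SE, n = 2 lines, limma adjusted p = 0.117, or 0.026 without the genes of zero residual).

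ADM, the vasodilator peptide adrenomedullin, stood at 6.0 and 6.76 in HK1 and at 6.19 and 6.84 in HK1EBV. Its changes of 0.76 and 0.64 were close to each other, and the mean of 0.70 ± 0.11 had a limma adjusted p = 0.0849, or 0.00988 without the genes of zero residual. ANGPTL4, an inhibitor of lipoprotein lipase, was near the array medians, at 1.93 to 2.57, with changes of 0.39 and 0.30. CA12, a carbonic anhydrase of the cell surface, lay under the medians on every array, at 1.35 to 1.69, where a change may not show.

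Of the glucose transporters, SLC2A1 (GLUT1), the main carrier of most carcinoma cells, stood at 7.67 with DMSO and 8.93 with CAPE in HK1 and at 8.33 and 8.63 in HK1EBV. The change was 1.26 in HK1 (2.40-fold) and 0.29 in HK1EBV (1.23-fold). In DMSO the lines differed by 0.67, with HK1EBV the higher, whereas in CAPE HK1 was the higher by 0.30. SLC2A3 (GLUT3) lay under the array medians, at 1.08 to 1.25.

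At the entry to glycolysis, HK2, the inducible hexokinase, stood at 5.81 and 6.95 in HK1 and at 5.93 and 6.22 in HK1EBV, a change of 1.14 and 0.28. GPI, which turns glucose 6-phosphate into fructose 6-phosphate, stood at 7.61 in HK1 in DMSO and at 8.31, 8.32 and 8.39 on the other arrays. HK1 in DMSO was the 1 low array for this gene. Neither passed in the planned limma fit (adjusted p = 0.186 and 0.33), and HK2 passed without the genes of zero residual (0.0378).

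The phosphofructokinases commit the sugar to glycolysis. PFKL, the liver-type isoform, stood at 4.82 and 5.82 in HK1 and at 5.19 and 5.64 in HK1EBV, a change of 1.0 (2.01-fold) and 0.45. PFKP, the platelet-type isoform, stood at 5.81 and 6.42 in HK1 and at 6.25 and 6.22 in HK1EBV, a change of 0.61 and -0.03. Of these isoforms PFKL was thus higher in both lines and PFKP in HK1. The bifunctional enzymes that make and remove the activator of phosphofructokinase were not higher. PFKFB3 stood at 5.64 and 5.37 in HK1 and at 5.98 and 5.97 in HK1EBV, and PFKFB4 at 2.13 and 2.13 and at 2.08 and 1.78.

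Further down the pathway, the isozymes of a step differed in their CAPE change. ENO2, the neuronal-type enolase, stood at 2.52 with DMSO and 4.51 with CAPE in HK1 and at 3.39 and 4.14 in HK1EBV. ENO1, the enolase of most tissues, stood at 9.43 and 9.84 in HK1 and at 9.65 and 9.47 in HK1EBV. ENO2 was thus higher in both lines, by 1.99 (3.97-fold) and 0.75 (1.68-fold), whereas ENO1 differed by 0.41 and -0.18. The mean change of ENO2, 1.37 ± 0.30 (moderated SE, n = 2 lines), had a limma adjusted p = 0.115, or 0.00579 without the genes of zero residual.

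ALDOA, the main aldolase, stood at 5.58 and 5.92 in HK1 and at 5.47 and 5.90 in HK1EBV, a change of 0.34 and 0.43. ALDOC, the brain-type aldolase, lay under the array medians at 1.5 to 1.72. TPI1, the triose phosphate isomerase, stood at 8.94 and 9.49 in HK1 and at 8.97 and 8.98 in HK1EBV. A change for TPI1 was thus seen in HK1, at 0.55, and hardly in HK1EBV, at 0.00. A dimmer probe set of TPI1 gave 0.29 and 0.10.

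PGK1, the first enzyme of glycolysis to yield ATP, stood at 8.36 and 9.29 in HK1 and at 8.63 and 9.07 in HK1EBV. Each CAPE array lay above each DMSO array, and the changes were 0.93 and 0.44 (limma adjusted p = 0.117, or 0.0191 without the genes of zero residual). PKM, the pyruvate kinase of most cancers, stood at 9.84 and 9.97 in HK1 and at 10.24 and 10.07 in HK1EBV. Its change was 0.14 in HK1 and -0.17 in HK1EBV. Of the 11 glycolytic enzymes, 10 were higher in HK1 (median 0.61) and 8 in HK1EBV (median 0.21), and 7 in both. Over all genes tested 32.1% were higher in both.

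The fate of pyruvate is set by lactate dehydrogenase and by the kinases that switch off pyruvate dehydrogenase. LDHA stood at 10.11 with DMSO and 10.71 with CAPE in HK1 and at 10.07 and 10.30 in HK1EBV, a change of 0.59 and 0.23. PDK1 stood at 4.88 and 6.29 in HK1 and at 4.74 and 5.09 in HK1EBV. The change of PDK1 was 1.41 (2.66-fold) in HK1 and 0.35 (1.27-fold) in HK1EBV, and HK1 in CAPE was the 1 array that stood far above the others. PDK3, a further kinase of the family, was higher by 0.47 and 0.06.

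The lines were then set against each other within each treatment. With DMSO, 24 of the 36 genes were higher in HK1EBV, where 52.2% of all genes were, and the median difference, HK1EBV minus HK1, was 0.18 against 0.01 over all genes. With CAPE, 7 of the 36 were higher in HK1EBV, where 47.9% of all genes were, and the median was -0.26 against a value close to 0 over all genes. For 19 of the 36 (52.8%) HK1EBV was the higher in DMSO and the lower in CAPE, which held for 18.4% of all genes. The larger CAPE change in HK1 and these 2 comparisons rest on the same 4 values of a gene, so none is independent of the others.

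Genes differed in which treatment separated the lines. NDRG1, ENO2, SLC2A1, GPI and EPAS1 were higher in HK1EBV with DMSO by 1.89, 0.87, 0.67, 0.70 and 0.50, and with CAPE the lines differed by -0.84, -0.37, -0.30, 0.08 and -0.01. For EGLN3, PDK1, HK2, KDM3A and EGLN1 the DMSO values were closer, at -0.32, -0.14, 0.13, 0.01 and -0.01 (HK1EBV minus HK1), and the CAPE values were -1.78, -1.20, -0.74, -0.59 and -0.55. HK1 in DMSO was thus the lowest array for the first 5 genes, and HK1 in CAPE the highest for the others. The split was not clean. HK1 in CAPE was also the highest array for NDRG1, ENO2, SLC2A1 and, by 0.01, EPAS1. HK1 in DMSO was also the lowest array for HK2 and KDM3A. KDM3A was higher with CAPE in HK1EBV too, by 0.72. These 10 were picked for their values as examples.

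**Figure D4:**
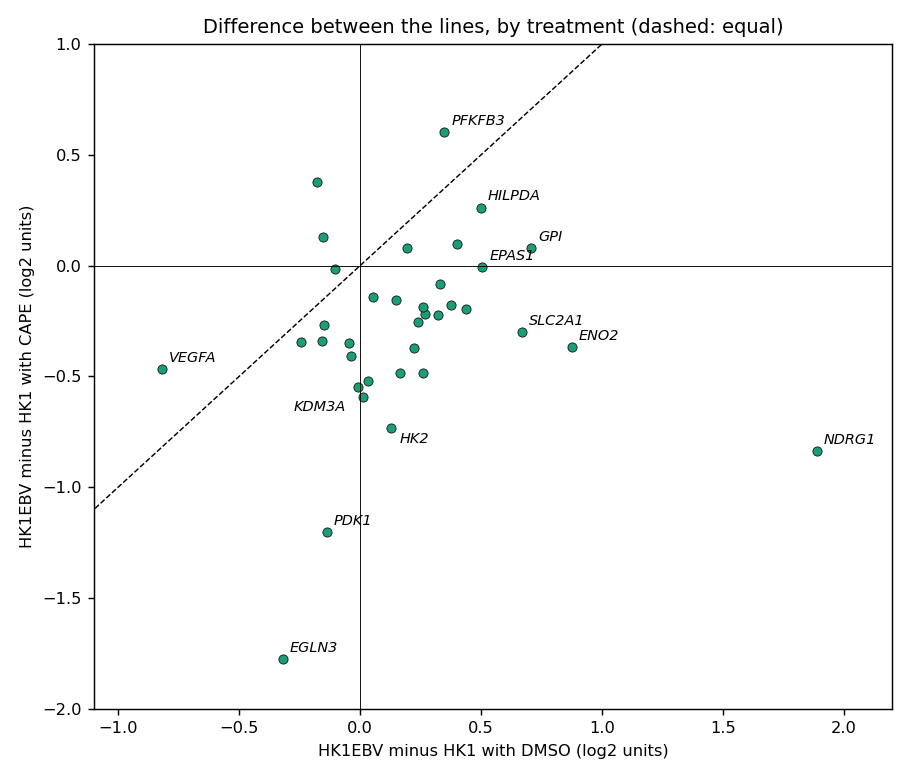
HK1EBV minus HK1 in log2 units with DMSO (horizontal) against the same difference with CAPE (vertical) for the 36 genes, each point resting on 4 arrays, with a dashed line where the difference is equal. Most points lie under the dashed line and 19 lie in the lower right part, with NDRG1 at 1.89 and -0.84, while EGLN3 and PDK1 lie low near a DMSO difference of 0.

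Averaged over the treatments, 0 of the 36 genes were higher and 0 lower in HK1EBV at a limma adjusted p under 0.05, where 1.32% of all genes were higher and 1.58% lower. At an unadjusted p under 0.05 there were 5, a smaller share than the 23.1% of all genes. VEGFA had the lowest limma adjusted p, 0.0797, and was lower in HK1EBV by 0.82 with DMSO and 0.47 with CAPE. Without the genes of zero residual VEGFA (adjusted p = 0.0133) and EGLN3 (0.0233) were lower and PFKFB3 (0.045) was higher in HK1EBV by the same limma test. These 3 of the 36 were a smaller share than the 11.6% of 15137 genes that passed in either direction.

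Other genes of the pathway were read from lists of related function, also chosen with earlier results of these data known. In the planned limma fit 0 of their genes passed for CAPE at an adjusted p under 0.05, where 0.00658% of all genes did. Of 26 further HIF targets tested, 25 were higher in HK1 (median 0.58) and 19 in HK1EBV (median 0.30). Of the 15194 genes tested, 8067 and 7316 were. At an unadjusted limma p under 0.05, 13 of the 26 were higher, where 10.2% of all genes were. Without the genes of zero residual 10 of the 26 passed as higher, where 4.07% of genes did. The values below give HK1 first and HK1EBV second. TMEM45A, a membrane protein, was higher by 2.47 and 1.28. The collagen prolyl 4-hydroxylase subunits P4HA1 and P4HA2 were higher by 1.72 and 1.55 and by 1.41 and 1.09. DDIT4, an inhibitor of mTORC1, had the larger value in HK1EBV, at 0.95 and 1.40.

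Of 10 genes of the HIF complex and its cofactors, both medians were close to 0, and ARNT, the partner of the alpha subunits, was higher by 0.59 and 0.49 (limma adjusted p = 0.108, or 0.0287 without the genes of zero residual). RBX1 and CUL2, which belong to the VHL ligase, had differences of -0.23 and -0.59 and of -0.45 and -0.21. CITED2, which competes with HIF for its coactivators, was higher by 0.60 and 0.09. Of 15 other glycolysis and lactate genes, with medians of 0.18 and 0.03, none (0) passed without the genes of zero residual. In that fit 8.21% of all genes passed in either direction. PDK2, another kinase of pyruvate dehydrogenase, was higher by 0.54 and 0.31. PDP1, the phosphatase that opposes these kinases, differed by -0.39 and -0.23. HKDC1, a hexokinase-like gene, differed by 0.73 and 0.08 but lay under the array medians on every array, at 1.18 to 1.91. TIGAR, which lowers the activator of phosphofructokinase, differed by -0.10 and -0.66.

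Of the 8 glycogen genes 7 were higher in both lines, where 32.1% of all genes tested were. The medians of the 8 were 0.44 in HK1 and 0.12 in HK1EBV. Without the genes of zero residual 0 of the 8 passed, where 8.21% of all genes passed in either direction. PGM1, phosphoglucomutase, was higher by 0.80 and 0.28, GBE1, the branching enzyme, by 0.43 and 0.33, GYS1, glycogen synthase, by 0.52 and 0.11, and PYGB, a glycogen phosphorylase, by 0.45 and 0.13. The 19 genes of pyruvate dehydrogenase and the citric acid cycle had medians near 0, at -0.04 and -0.12. Of these 19, 10 were lower in both lines, where 29.5% of all genes were, and 2 were higher in both, where 32.1% were. Without the genes of zero residual 1 of the 19 passed as lower, where 627 of 15137 genes did. DLAT, the acetyltransferase core of pyruvate dehydrogenase, differed by -0.64 and -0.51 (limma adjusted p = 0.103, or 0.0228 without the genes of zero residual). PDHA1 differed by -0.31 and -0.39, SUCLA2, a succinate-CoA ligase subunit, by -0.40 and -0.35, and PC, pyruvate carboxylase, by 0.47 and 0.23.

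The 6 pentose phosphate genes had medians of 0.21 and 0.15. RPIA, the ribose 5-phosphate isomerase, differed by -0.69 and -0.77 (limma adjusted p = 0.083, or 0.00769 without the genes of zero residual), whereas PGLS was higher by 0.45 and 0.17, PGD by 0.19 and 0.36, and TKT by 0.26 and 0.25. Of 4 genes of glucose sensing through MondoA, TXNIP, an inhibitor of glucose uptake, was higher by 0.56 and 0.71 (limma adjusted p = 0.0931, or 0.0157 without the genes of zero residual). ARRDC4, its relative, was higher by 0.20 and 0.11, MLXIP (MondoA) differed by -0.06 and -0.31, and MLXIPL by 0.21 and -0.20. MLXIPL lay under the array medians on every array, at 1.73 to 2.10.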

How the data were processed

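Each of the 4 arrays measured the RNA of 1 group on a single-colour Affymetrix platform. The deposited log2 values were made by RMA, per the submitters' processing notes, a method that corrects background, brings arrays to one distribution and sums up the probes of a probe set. The sources used here do not give the version of RMA, the log base, any later centring or any filter on probe sets. Values ran from -0.19 to 11.92.

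In the platform annotation 18612 of 25800 probe sets named 1 gene, 954 several genes and 6234 no gene. The first kind alone was used, and 18583 matched the RefSeq gene table (GRCh38.p14) by Entrez number. The brightest probe set stood for a gene, giving 18323 genes. A gene was tested where its mean reached the 25th percentile of probe sets (0.997), which left 15194. The additive fit (limma 3.58.1, R 4.3.3, lmFit and eBayes) had terms for line and treatment and 1 residual degree of freedom, with two-sided tests and Benjamini-Hochberg adjustment over all genes tested. For 57 genes the residual was exactly 0, and a second fit left them out (15137 genes). Other settings tried were the filter, the scaling, the mean of probe sets, the variance prior, the block and the thresholds.

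The 38 genes and the lists of related genes were chosen with earlier results of these data known. Named genes were all 36 with a value and, from each related list, the 4 with the largest mean difference in size. Genes set out as examples for the difference between the lines were picked for their values.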

Additional observations from a re-analysis of the deposited data

Results flagged for a closer look

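For 9 of the 36 genes the CAPE change had opposite signs in the lines, a smaller share than the 35.7% of all genes tested. It was higher in HK1 and lower in HK1EBV for 8 of them and the reverse for ALDOC, a difference that was not tested. The change in HK1 minus that in HK1EBV was 0.63 for PFKP, 0.59 for ENO1, 0.54 for CA12 and 0.44 for VHL. It was 0.30 for HIF1AN, 0.30 for PKM, 0.30 for PFKFB4, 0.20 for SLC2A3 and -0.28 for ALDOC. CA12, PFKFB4, SLC2A3 and ALDOC lay at or under the array medians on every array, and PFKFB4 was all but level in HK1.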

How the results depend on the processing

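Whether a gene passed the limma test depended on the processing, while the sizes of the changes hardly did. Against 0 of 36 genes for CAPE in the planned fit, 16 passed without the genes of zero residual, 11 with arrays set to one median, 9 with a filter at the 50th percentile (31 genes tested), 7 after quantile normalization, 5 with a robust prior and 5 at an adjusted p under 0.1. Against 0 for the line, the same settings gave 3, 2, 1, 1, 1 and 1. Both counts stayed at 0 with a trended prior, without the block, without a filter and with the mean of probe sets. Over all genes, CAPE calls were 1 in the planned fit, 7 with a trended prior, 379 with a robust prior, 755 after quantile normalization, 894 with the stricter filter, 1006 with arrays set to one median and 1243 without the genes of zero residual. For the line they were 440 in the planned fit and, in the same order, 440, 959, 1324, 1296, 1526 and 1756. Without the block, and without the filter, 0 genes passed for either effect, and with the mean of probe sets 1 and 489. At 1.5-fold in place of 2-fold, 19 genes were higher in HK1 and 9 in HK1EBV. The medians in each line and the count of 31 genes with the higher change in HK1 moved by no more than 0.1 log2 units or 1.5 times under the filter, scaling and probe set alternatives. Since each group had 1 array, none could be left out. Dim genes, such as CA12 and SLC2A3, may not show a change.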
